A study of Homo sapiens with 12 samples.

Results

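The 10 genes described here encode plasma apolipoproteins and enzymes that build lipoprotein particles: APOB, APOA1, APOA2, APOC1, APOC3, APOE, APOM, APOH, MTTP and GPAM. They were taken by gene name from a table of 58884 genes, in which each name had 1 row, and all 10 were among the 16537 genes that passed a filter on low counts. In HCC-LM3, 7 of them had at most 2 counts in any library, so these passed through the Huh-7 libraries. RNA was sequenced in 12 libraries of the hepatocellular carcinoma lines Huh-7 and HCC-LM3, with 3 libraries in each of 4 groups: METTL5 knockout Huh-7, wild-type Huh-7, METTL5 knockout HCC-LM3 and wild-type HCC-LM3. METTL5 is the methyltransferase of the m6A site in 18S ribosomal RNA. Knockout cells had been infected with a guide RNA against METTL5, and wild-type cells were untreated, so the knockout and wild-type groups also differ in infection. The labels name no control guide, clone or separate culture, so the p-values rest on variation among libraries that may be technical only.

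Hepatocytes load triglyceride onto apolipoprotein B in the endoplasmic reticulum, with the microsomal triglyceride transfer protein as the lipid carrier, and secrete the product as very low density lipoprotein. Apolipoprotein B stays with its particle for life, whereas the small A, C and E apolipoproteins move between particles and direct lipases, receptors and high density lipoprotein. The genes of this set are strongly expressed in liver, and hepatocyte transcription factors of the HNF1 and HNF4 families are known to bind the control regions of several of them.

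RefSeq promoter windows on GRCh38.p14, from 250 bases before to 50 bases after a transcription start, were found for 7 of the 10 genes (APOA2, APOC1, APOE, APOM, APOH, MTTP and GPAM). They were searched on both strands for CAAAGNNCA (HNF4 type), GTTAAT and TTAATNATT (HNF1 type, which can share bases) and TGACCTTT (nuclear receptor type). The letters of the last 2 were chosen after the MTTP window had been read. The 4 windows printed here are that of APOA2, the gene with the highest TPM of the set, which held no match, and those of APOM, APOH and of the second MTTP start, which held the matches, shown in capitals.
APOA2: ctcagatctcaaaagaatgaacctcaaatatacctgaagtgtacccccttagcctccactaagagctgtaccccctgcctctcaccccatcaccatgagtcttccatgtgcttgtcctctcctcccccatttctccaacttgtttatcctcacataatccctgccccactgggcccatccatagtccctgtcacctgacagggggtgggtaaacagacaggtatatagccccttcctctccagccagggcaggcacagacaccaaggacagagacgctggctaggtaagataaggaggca
APOM: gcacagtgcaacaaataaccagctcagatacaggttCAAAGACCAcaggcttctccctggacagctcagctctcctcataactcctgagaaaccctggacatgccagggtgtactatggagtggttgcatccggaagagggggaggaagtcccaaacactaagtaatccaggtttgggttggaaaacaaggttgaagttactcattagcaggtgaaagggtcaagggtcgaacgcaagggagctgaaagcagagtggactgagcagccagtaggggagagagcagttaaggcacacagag
APOH: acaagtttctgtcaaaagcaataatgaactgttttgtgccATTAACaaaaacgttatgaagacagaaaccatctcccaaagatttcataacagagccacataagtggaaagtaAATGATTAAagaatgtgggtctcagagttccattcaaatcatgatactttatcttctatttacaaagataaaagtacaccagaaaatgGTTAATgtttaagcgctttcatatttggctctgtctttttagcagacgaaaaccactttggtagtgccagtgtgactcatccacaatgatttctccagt
MTTP: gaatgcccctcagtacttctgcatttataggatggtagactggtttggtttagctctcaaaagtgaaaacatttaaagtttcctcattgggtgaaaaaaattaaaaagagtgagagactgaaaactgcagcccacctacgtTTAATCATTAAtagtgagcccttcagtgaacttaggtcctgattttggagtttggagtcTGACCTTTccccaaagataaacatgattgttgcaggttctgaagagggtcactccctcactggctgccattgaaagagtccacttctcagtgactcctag
The windows lie at chr1:161223579-161223878 on the minus strand (APOA2), chr6:31655644-31655943 on the plus strand (APOM), chr17:66229366-66229665 on the minus strand (APOH) and chr4:99574574-99574873 on the plus strand (MTTP), each written along its own gene. Counted from the start, APOM held CAAAGNNCA at -214. APOH held GTTAAT at -210 on the other strand and at -49, and TTAATNATT at -137 on the other strand. MTTP held TTAATNATT on both strands, at -109 and -107, and TGACCTTT at -50. Of 35116 RefSeq promoter windows of this length, 5.28% held CAAAGNNCA, 6.88% held GTTAAT, 1.31% held TTAATNATT and 1.22% held TGACCTTT. The windows of APOC1, APOE and GPAM and of the first MTTP start held none of these letters.

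Total counts per library were 17495275 to 20523310 in knockout Huh-7, 18556054 to 25797786 in wild-type Huh-7, 22076030 to 26415496 in knockout HCC-LM3 and 21730010 to 25704026 in wild-type HCC-LM3. METTL5 had 0 counts in all 6 knockout libraries, against 169 to 258 counts in wild-type Huh-7 and 268 to 327 in wild-type HCC-LM3. Summed TPM (abundance scaled for gene length and library size) of 8 hepatocyte markers was 5160 to 5270 in knockout Huh-7 and 9690 to 10900 in wild-type Huh-7. In HCC-LM3 the sum was 27.8 to 32.0 TPM in knockout cells, with ALB and TTR at 0, and at most 29.8 TPM in wild-type cells, with TTR and SERPINA1 at 0. HCC-LM3, labelled as liver cancer cells, thus held hepatocyte markers at a small part of the Huh-7 level. Between knockout and wild-type Huh-7 the marker sum moved beside the results below, and its part in them was not tested. Markers of other cell types moved too: 4 leukocyte markers summed to 20.3 to 22.3 TPM in knockout Huh-7 and 42.7 to 47.0 TPM in wild-type Huh-7, with PTPRC at 0 in knockout cells. The sums were 0.51 to 1.01 TPM in knockout and 6.56 to 7.74 TPM in wild-type Huh-7 for 5 fibroblast markers (DCN at 0 in knockout cells), and 0.28 to 0.36 TPM in knockout and 1.90 to 2.63 TPM in wild-type Huh-7 for 4 endothelial markers (KDR at 0 in both). For 5 cholangiocyte markers the sums overlapped, at 453 to 458 TPM in knockout and 423 to 471 TPM in wild-type Huh-7. In HCC-LM3 the leukocyte sums were 47.8 to 55.6 TPM in knockout and 43.6 to 46.5 TPM in wild-type cells, with PTPRC and CD3E at 0 in both. The fibroblast sums there were 7.35 to 9.16 TPM in knockout and 12.3 to 14.9 TPM in wild-type cells, with LUM at 0 in both. The part of all these in the results was not tested. In bulk RNA, fewer cells with a marker and less RNA per cell cannot be told apart. The libraries come from cultured lines, so the marker sums check the labels and are not read as a mixture of cell types. On log2(TPM + 1), tested with limma, 69.1% of all tested genes were called lower in knockout Huh-7.

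The scale matters in Huh-7. TMM factors, which align libraries on the bulk of their genes, were 0.491 to 0.51 in knockout Huh-7 and 1.06 to 1.10 in wild-type Huh-7. The median log2 fold change of all tested genes in Huh-7, knockout over wild type, was -0.30 with TMM and -1.40 with library totals alone. Fold changes below come from edgeR with TMM unless another scale is named, with adjusted p-values over all 16537 genes and calls at 0.05. Values per library are the authors' TPM.

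In Huh-7, loss of METTL5 came with less RNA for APOB, the structural protein of very low density lipoprotein, and for the assembly genes MTTP and GPAM. RNA for the small apolipoproteins APOC1 and APOA2 and for APOM was higher. With TMM, 6 of the 10 genes were called higher and 3 lower, 9 in all, against 31.7%, 43.2% and 75.0% of all tested genes. With library totals alone 5 were called higher and 4 lower, against 12.1% and 65.3% of all genes. On log2(TPM + 1), tested with limma, 4 were called higher and 6 lower, against 5.18% and 69.1% of all genes. With GC and length offsets, which fit the trend over both properties, 3 were called higher and 5 lower, against 29.5% and 28.1% of all genes. The decreases of APOB, MTTP and GPAM and the increases of APOC1, APOA2 and APOM were called in all 16 alternative analyses. Among these only the GC and length offsets fit the trend over gene length, and the changes were smaller there. With offsets the log2 fold changes were -1.69 for APOB, -0.96 for MTTP and -1.31 for GPAM. They were 0.49 for APOC1, 0.15 for APOA2 and 0.76 for APOM. APOC3 was called higher in 15 of them, and APOA1, APOE and APOH changed direction with the scale. The median log2 fold change of the 10 genes was 1.25, against -0.30 over all tested genes, and with the offsets it was -0.23, against -0.01.

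**Figure D1:**
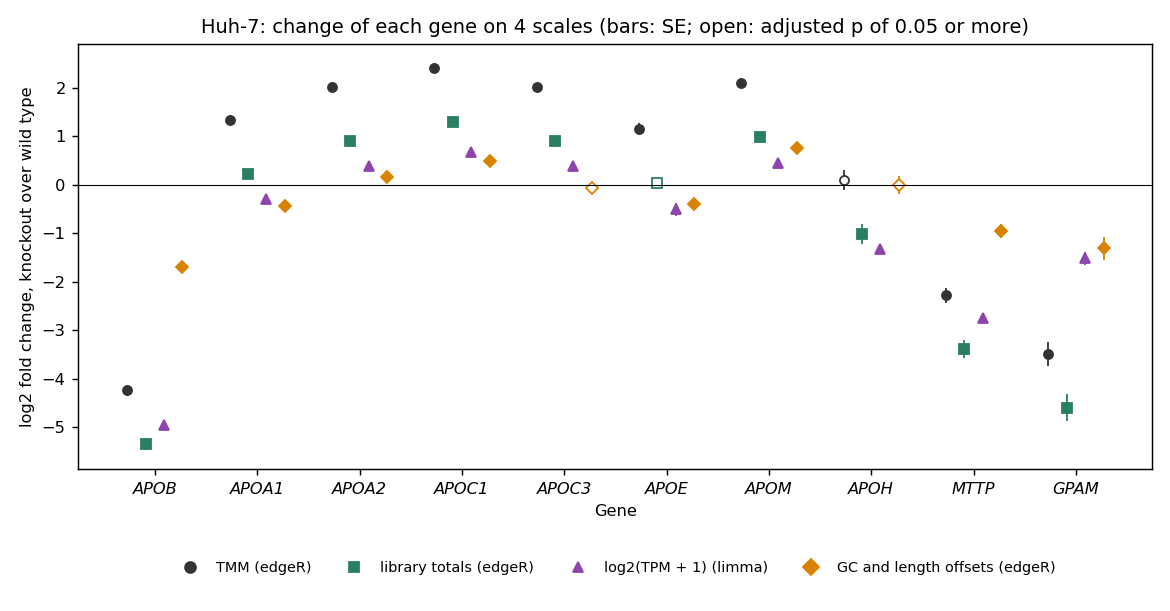
Log2 fold change of each gene in Huh-7, knockout over wild type, on 4 scales (TMM, library totals alone, log2(TPM + 1), and offsets for GC content and length). Bars are standard errors of the fitted change, from models of all 12 libraries that share information on spread across genes, and open symbols are values not called; APOB, MTTP and GPAM lie below 0 and APOC1, APOA2 and APOM above 0 on every scale, while APOA1, APOE, APOC3 and APOH do not keep 1 side.

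APOB (chr2:21001429-21044073, minus strand, GENCODE 29 on GRCh38) encodes the protein that forms the scaffold of very low and low density lipoproteins. It had 1.45, 1.09 and 1.28 TPM in knockout Huh-7, against 63.6, 72.2 and 73.5 TPM in wild-type Huh-7. Its counts were 649, 414 and 468 in knockout cells and 26162, 23814 and 21559 in wild-type cells. Every knockout library lay far below every wild-type library. The log2 fold change was -4.24 (SE 0.121, edgeR adjusted p = 1.04e-21). It was -5.35 with library totals, -4.96 on log2(TPM + 1) and -1.69 with the GC and length offsets.

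MTTP (chr4:99563761-99623999, plus strand) encodes the large subunit of the transfer protein that lipidates apolipoprotein B. It had 0.60, 0.74 and 0.95 TPM in knockout Huh-7, against 9.82, 11.97 and 10.6 TPM in wild-type Huh-7. The groups did not overlap, and the log2 fold change was -2.28 (SE 0.16, edgeR adjusted p = 1.17e-14). On the other scales it was -3.39 with totals, -2.74 on log2(TPM + 1) and -0.96 with offsets. GPAM (chr10:112149864-112215377, minus strand) encodes the mitochondrial enzyme that attaches the first fatty acid to glycerol 3-phosphate, the entry to triglyceride synthesis. It had 16, 8 and 9 counts in knockout Huh-7, against 332, 300 and 294 counts in wild-type Huh-7. In TPM this was 0.14, 0.04 and 0.05 in knockout cells and 1.86, 2.21 and 2.23 in wild-type cells. No knockout value came near a wild-type value, and the log2 fold change was -3.49 (SE 0.251, edgeR adjusted p = 2.23e-14). It was -4.60 with totals and -1.31 with offsets, and -1.52 on log2(TPM + 1), a scale that understates the change of a gene this low.

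APOA2 (chr1:161222292-161223631, minus strand) encodes the second most abundant protein of high density lipoprotein. It had 5835, 5867 and 5905 TPM in knockout Huh-7, against 4369.8, 4922 and 4167 TPM in wild-type Huh-7. All knockout libraries were above all wild-type libraries. The log2 fold change was 2.01 (SE 0.105, edgeR adjusted p = 3.05e-17), 0.90 with totals, 0.39 on log2(TPM + 1) and 0.15 with offsets (edgeR adjusted p = 0.0299). APOC1 (chr19:44914247-44919349, plus strand) encodes a small exchangeable protein that inhibits the cholesteryl ester transfer protein. It had 1367, 1368 and 1331 TPM in knockout Huh-7, against 838, 845 and 879 TPM in wild-type Huh-7. Again the groups did not overlap, and the log2 fold change of 2.40 (SE 0.104, edgeR adjusted p = 1.86e-19) was the largest increase among the 10 genes, also with totals (1.29) and on log2(TPM + 1) (0.67). With offsets it was 0.49, below that of APOM. Reads of APOC1P1, a near copy of APOC1, may be shared with it, and APOC1P1 had a log2 fold change of 2.29.

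APOC3 (chr11:116829706-116833072, plus strand) encodes an inhibitor of lipoprotein lipase and of remnant uptake. It had 562, 555 and 565 TPM in knockout Huh-7, against 415, 461 and 419.7 TPM in wild-type Huh-7, without overlap. Its log2 fold change was 2.01 (SE 0.0949, edgeR adjusted p = 3.6e-18), 0.90 with totals, 0.38 on log2(TPM + 1) and -0.06 with offsets (edgeR adjusted p = 0.435). The increase was thus not called once GC content and length were fitted. APOA1 (chr11:116835751-116837950, minus strand) encodes the main protein of high density lipoprotein and the activator of lecithin-cholesterol acyltransferase. It had 2608, 2668 and 2647 TPM in knockout Huh-7, against 3154, 3502 and 3022 TPM in wild-type Huh-7. In TPM every knockout library was below every wild-type library, yet the log2 fold change was 1.34 with TMM (SE 0.106, edgeR adjusted p = 2.16e-13) and 0.23 with totals. It was -0.29 on log2(TPM + 1) and -0.44 with offsets, so APOA1 has no direction that holds on every scale.

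APOE (chr19:44905754-44909393, plus strand) encodes the ligand by which remnants bind the low density lipoprotein receptor and its relatives. It had 1343, 1496 and 1406 TPM in knockout Huh-7, against 1957, 2052 and 2002 TPM in wild-type Huh-7. The log2 fold change was 1.15 with TMM (SE 0.115, edgeR adjusted p = 7.62e-11), 0.04 with totals, -0.50 on log2(TPM + 1) and -0.40 with offsets. As for APOA1, the TPM of all knockout libraries lay below that of all wild-type libraries while the TMM value was positive. APOM (chr6:31652416-31658210, plus strand) encodes a lipocalin of high density lipoprotein that carries sphingosine 1-phosphate. It had 144.5, 161 and 154 TPM in knockout Huh-7, against 119, 99.0 and 118 TPM in wild-type Huh-7. The knockout libraries were the higher ones throughout, with a log2 fold change of 2.09 (SE 0.101, edgeR adjusted p = 1.74e-18), 0.98 with totals, 0.45 on log2(TPM + 1) and 0.76 with offsets. APOH (chr17:66212033-66256525, minus strand) encodes beta-2-glycoprotein I, which binds anionic phospholipids. It had 3.31, 3.08 and 2.29 TPM in knockout Huh-7, against 8.50, 8.94 and 8.45 TPM in wild-type Huh-7. Its counts were 101, 82 and 58 in knockout cells and 225, 182 and 158 in wild-type cells. APOH was lower with totals (-1.01) and on log2(TPM + 1) (-1.32), but its log2 fold change was 0.10 with TMM (SE 0.202, edgeR adjusted p = 0.679) and 0.00 with offsets.

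Ratios of TPM within a library do not depend on how whole libraries are scaled, but they carry any trend over gene length or GC content that differs between the groups. APOA2 TPM over APOA1 TPM was 2.24, 2.20 and 2.23 in knockout Huh-7, against 1.39, 1.41 and 1.38 in wild-type Huh-7. APOC3 over APOA1, which are neighbours on chromosome 11 with 2678 bases between them, was 0.216, 0.208 and 0.213 in knockout cells and 0.131, 0.132 and 0.139 in wild-type cells. Both partners of APOA1 thus held a larger part beside it in every knockout library. APOC1 over APOE, which lie 4853 bases apart on chromosome 19, was 1.02, 0.915 and 0.947 in knockout Huh-7, against 0.428, 0.412 and 0.439 in wild-type Huh-7. APOB TPM per 1000 TPM of APOA1 was 0.556, 0.409 and 0.483 in knockout cells and 20.2, 20.6 and 24.3 in wild-type cells. MTTP over APOB was higher in every knockout library, at 0.414, 0.679 and 0.742 against 0.154, 0.166 and 0.144 in wild-type libraries, since APOB was the lower of the pair by the larger factor. With the GC and length offsets the log2 fold changes behind these ratios were closer together, at -1.69 for APOB, -0.44 for APOA1 and -0.96 for MTTP, so the pairs of unequal length differed much less on that scale. APOA2 over APOC3 overlapped between the groups, at 10.4, 10.6 and 10.5 in knockout Huh-7 and 10.5, 10.7 and 9.93 in wild-type Huh-7. An exact permutation test of a ratio cannot reach a p below 0.1 at 3 libraries a group, so the ratios are described without one.

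**Figure D2:**
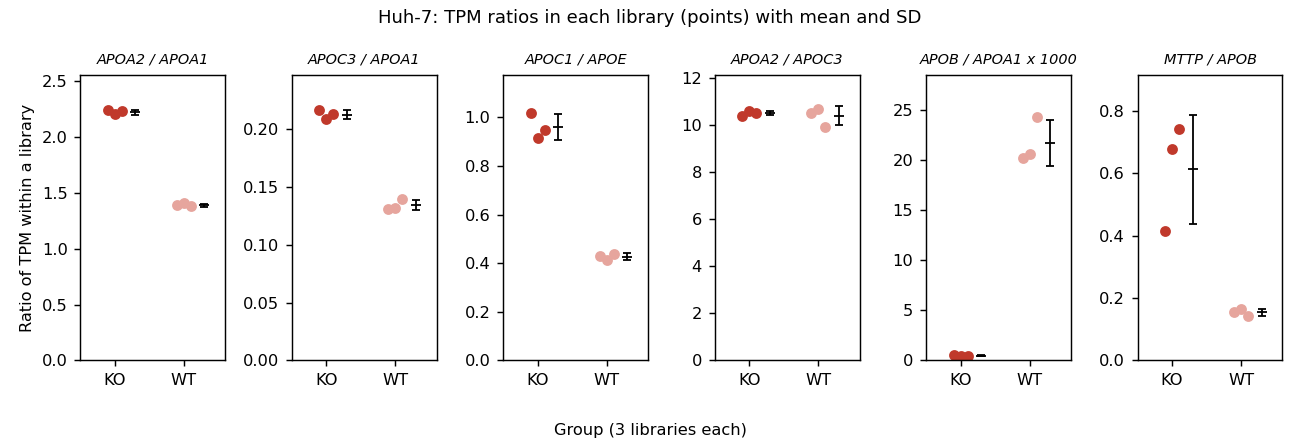
Ratio of the deposited TPM of 2 genes within each Huh-7 library (y axis, from 0) in knockout and wild-type cells, with the mean and SD beside the 3 points of a group. The groups overlap in APOA2 over APOC3, which was 10.4 to 10.6 in knockout and 9.93 to 10.7 in wild-type libraries, and are apart in the other ratios shown. The pairs were chosen, and the share of other gene pairs that would be apart was not worked out, so nothing is read from their number.

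Gene length moved with the Huh-7 fold changes over all genes. The median log2 fold change was 1.42 in the 1817 genes of up to 1000 bases, 0.73 in the 3608 of 1001 to 2000, -0.27 in the 6132 of 2001 to 4000, -1.56 in the 3974 of 4001 to 8000 and -2.32 in the 1006 above 8000. The members follow that order: APOA2, APOC1, APOC3, APOM and APOA1 have deposited lengths of 530 to 932 bases, GPAM has 6372 and APOB has 14121. Within its own class, APOB was among the lowest 43 of 1006 genes with TMM, the lowest 2 on log2(TPM + 1) and the lowest 94 with the offsets. GPAM was among the lowest 222 of 3974 with TMM and the lowest 530 with offsets, and MTTP, of 3154 bases, among the lowest 759 of 6132 and the lowest 1287. APOC1 was among the highest 165 of 1817 with TMM and the highest 475 with offsets, and APOM among the highest 402 and 322. APOA2 was among the highest 466 with TMM and the highest 766 with offsets, and APOC3 among the highest 472 and 1033. APOA1 was among the highest 944 and 1242, and its TMM value of 1.34 lay near the class median of 1.42. In the class of 3608 genes, APOE was among the highest 1304 and 2369, and APOH among the highest 2288 and 1804. In HCC-LM3 the medians of the same classes lay between -0.05 and 0.06. With the offsets the Huh-7 medians were 0.00 up to 2000 bases, -0.01 at 2001 to 4000, -0.11 at 4001 to 8000 and -0.18 above 8000. A small trend thus stayed in the classes of GPAM and APOB. The part of gene length in the members' changes was tested only by the offsets.

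**Figure D3:**
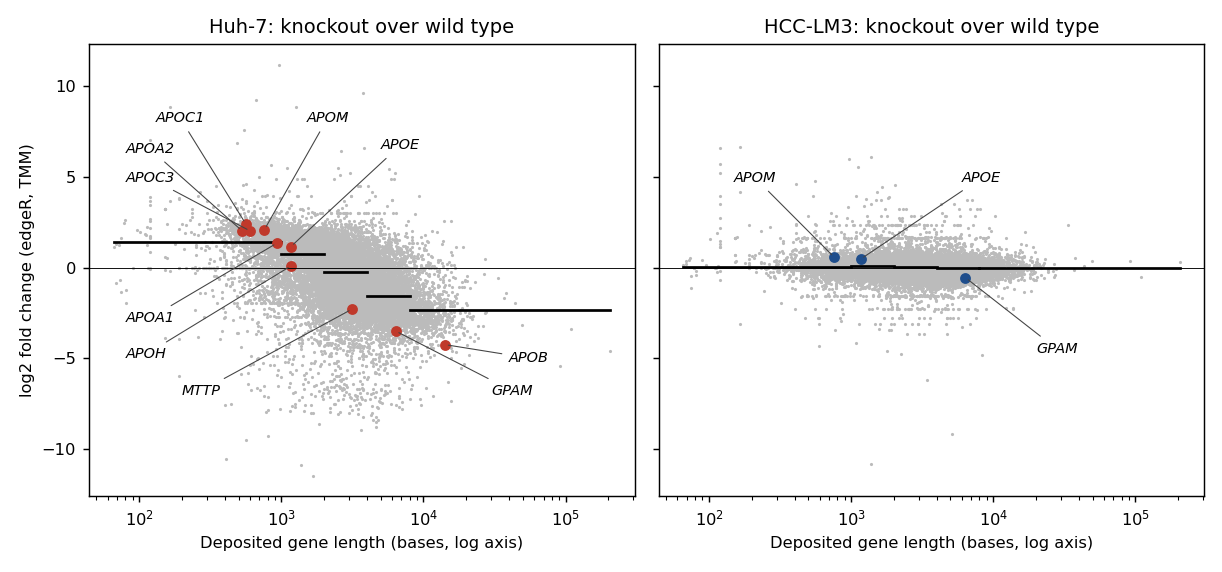
Log2 fold change (edgeR, TMM) of 16537 genes against deposited gene length in bases (log axis), knockout over wild type, in Huh-7 (left) and HCC-LM3 (right). Black bars are medians of 5 length classes, from 1.42 to -2.32 in Huh-7 and within -0.05 to 0.06 in HCC-LM3; coloured points are the 10 genes in Huh-7 and the 3 with counts above the floor in HCC-LM3.

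By TPM, the order in knockout Huh-7 was APOA2, APOA1, APOE, APOC1, APOC3, APOM, APOH, APOB, MTTP and GPAM. In wild-type Huh-7 it was APOA2, APOA1, APOE, APOC1, APOC3, APOM, APOB, MTTP, APOH and GPAM. Neighbours in these orders had separate ranges over libraries, except APOE and APOC1 in knockout cells. APOA2 ranked 29 to 30 among all genes in knockout libraries and 28 to 38 in wild-type libraries. APOB ranked 6843 to 7425 in knockout libraries, against 1379 to 1540 in wild-type libraries, and thus stood below APOH in place of above it. The 10 genes together held 0.854%, 0.887% and 0.855% of all counts in knockout Huh-7 and 0.745%, 0.814% and 0.741% in wild-type Huh-7. The share was higher in each knockout library, and APOB made up 414 to 649 counts of it there, against 21559 to 26162 in wild-type libraries.

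In HCC-LM3, 1 of the 10 genes was called, GPAM, which was lower, against 26.8% of all tested genes called, 12.9% lower and 14.0% higher. GPAM had 186, 169 and 189 counts in knockout HCC-LM3, against 189, 328 and 338 counts in wild-type HCC-LM3. In TPM these were 1.27, 1.33 and 1.21 in knockout cells and 1.52, 2.31 and 2.79 in wild-type cells. The TPM ranges did not overlap, but wild-type replicate 1 was close to the knockout libraries. The log2 fold change was -0.55 (SE 0.165, edgeR adjusted p = 0.0124). It was -0.38 without wild-type replicate 3 (edgeR adjusted p = 0.143) and -0.26 with the offsets (edgeR adjusted p = 0.165), and neither was called.

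APOM and APOE were the other genes with counts above a floor of 3 in HCC-LM3. APOM had 22, 17 and 21 counts in knockout HCC-LM3, against 19, 12 and 12 counts in wild-type HCC-LM3, and its log2 fold change was 0.56 (SE 0.293, edgeR adjusted p = 0.158). APOE had 11, 6 and 13 counts in knockout cells and 15, 4 and 4 in wild-type cells, with a log2 fold change of 0.46 (SE 0.445, edgeR adjusted p = 0.482). Both genes overlapped between the groups, with wild-type replicate 1 as the high wild-type library. Without that library both were called, at 0.87 for APOM (edgeR adjusted p = 0.0431) and 1.42 for APOE (edgeR adjusted p = 0.0191). APOB and APOH had 0 counts in all 6 HCC-LM3 libraries. APOA1, APOA2, APOC1, APOC3 and MTTP had 0 to 2 counts in each, so a change in these 7 genes was not detectable at this depth. By median TPM, knockout HCC-LM3 had APOM at 1.70, GPAM at 1.27 and APOE at 0.66, in separate ranges. Wild-type HCC-LM3 had GPAM at 2.31 and APOM at 1.28, whose ranges overlapped, and APOE at 0.29.

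**Figure D4:**
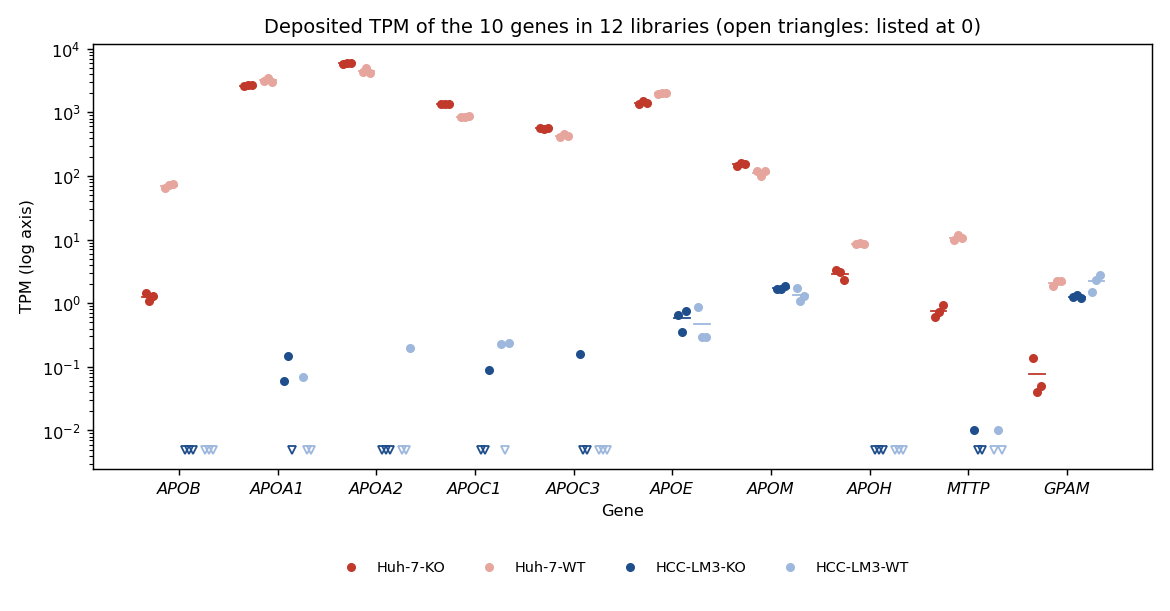
Deposited TPM (log axis) of the 10 genes in every library of knockout Huh-7, wild-type Huh-7, knockout HCC-LM3 and wild-type HCC-LM3; points are libraries, short lines the mean of a group with no zero, and open triangles libraries listed at 0. APOB falls to 1.09 to 1.45 TPM in knockout Huh-7. The genes other than GPAM lie far lower in HCC-LM3 than in Huh-7, but 7 of them passed the filter on low counts through Huh-7, so nothing is read from their number.

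The difference of the 2 knockout effects, Huh-7 minus HCC-LM3, was called for 3 of the 10 genes and for 61.6% of all tested genes. The 2 figures cannot be set against each other, since 7 of the genes had 0 to 2 counts in every HCC-LM3 library. APOC1, one of the 3, is among those 7, and its difference is not described. GPAM, APOM and APOE had counts in both lines. For GPAM the difference was -2.94 log2 (SE 0.313, edgeR adjusted p = 6.4e-10), and it was called in all 21 alternatives, at -3.88 to -1.05. GPAM was thus lowered more in Huh-7 than in HCC-LM3. For APOM the difference was 1.52 (SE 0.324, edgeR adjusted p = 0.000121), called in 18 of 21 alternatives and not with library totals, TPM or the offsets. For APOE it was 0.69 (SE 0.481, edgeR adjusted p = 0.224), and its sign turned with library totals (-0.28), TPM (-0.62) and the offsets (-0.57).

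Between the wild-type lines, 9 of the 10 genes were lower in HCC-LM3 by at least 91.3-fold. The share of all tested genes lower by as much is not given here. All 10 genes were called lower in wild-type HCC-LM3 than in wild-type Huh-7 with TMM, as were 41.0% of all tested genes. Nothing is read from either count, since 7 of the genes passed the filter through Huh-7, where they are high. Over 3 libraries each, APOB summed to 0 counts in wild-type HCC-LM3 and 71535 in wild-type Huh-7, at least 11700-fold lower against a floor of 3 counts a library. APOC3 was at least 1490-fold and APOH at least 91.3-fold lower. APOE, with 23 counts in HCC-LM3 and 130784 in Huh-7, was 8340-fold lower (95% counting interval 5560 to 13200), and APOM was 143-fold lower (106 to 198). These intervals and floors cover counting error only. Wild-type HCC-LM3 replicate 1 held 15 of the 23 APOE counts, and the fitted log2 fold change of APOE was -13.9 without it, against -12.99 with it. GPAM, which many tissues use for triglyceride synthesis, was the exception, at 855 counts in HCC-LM3 and 926 in Huh-7. Its log2 fold change was -0.69 (SE 0.161, edgeR adjusted p = 0.000237), but it was -0.25 with library totals (edgeR adjusted p = 0.229) and 0.03 on log2(TPM + 1), so no difference between the lines held on all scales.

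Other genes of the same pathway were counted in 6 lists. In Huh-7, 8 of 30 tested genes of particle folding and export rose and 21 fell with TMM, with a median log2 fold change of -1.19, against 31.7% higher, 43.2% lower and a median of -0.30 over all tested genes. With library totals none rose and 26 fell, against 12.1% and 65.3% of all genes, and with offsets 7 rose and 16 fell, against 29.5% and 28.1%. HSPA5, the main chaperone of the endoplasmic reticulum, had 24.0 ± 4.21 CPM (TMM-scaled) in knockout Huh-7, against 204 ± 24.5 in wild-type Huh-7 (SD, n = 3 each), a log2 fold change of -3.08 (edgeR adjusted p = 2.39e-20) that stayed at -1.88 with offsets. CANX, a lectin chaperone, had 31.4 ± 4.57 CPM in knockout and 190 ± 15.1 CPM in wild-type cells. MIA3, which helps load large cargo into transport carriers, had 3.72 ± 0.75 CPM in knockout and 27.3 ± 2.81 CPM in wild-type cells. SEC24A, a cargo adaptor of COPII vesicles, had 2.67 ± 0.601 CPM in knockout and 20.8 ± 0.532 CPM in wild-type cells. All 4 were called lower on all 4 scales, but with offsets CANX was at -0.69, MIA3 at -0.48 and SEC24A at -0.67 log2, against -2.59, -2.87 and -2.94 with TMM.

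Of 25 tested genes that supply glycerolipids, 10 rose and 14 fell in Huh-7 with TMM, 2 rose and 19 fell with totals, and 10 rose and 10 fell with offsets. The shares of all genes higher and lower were 31.7% and 43.2% with TMM, 12.1% and 65.3% with totals, and 29.5% and 28.1% with offsets. With offsets the list thus rose and fell in equal number. The phosphatidate phosphatases LPIN2 and LPIN1, which make the diacylglycerol for triglyceride, were lower, with log2 fold changes of -2.89 and -2.27, as was the acyltransferase AGPAT5 at -2.58. With offsets the 3 values were -1.53 for LPIN2, -1.57 for LPIN1 and -0.68 for AGPAT5. LPIN2 had 4.32 ± 1.3 CPM in knockout Huh-7 and 32.0 ± 2.07 CPM in wild-type Huh-7. Of 15 other apolipoproteins and lipoprotein-bound proteins, 7 rose and 4 fell with TMM, but 2 rose and 7 fell with totals, where 12.1% of all genes were higher and 65.3% lower. The increases that held on every scale were those of SAA4, an apolipoprotein of high density lipoprotein (2.52 log2 with TMM and 1.30 with offsets), and of APOC2, the cofactor of lipoprotein lipase. APOC2 had 1440 ± 31.1 CPM in knockout Huh-7 and 302 ± 5.23 CPM in wild-type Huh-7 (SD, n = 3 each), with a log2 fold change of 2.25 (SE 0.0989, edgeR adjusted p = 3.45e-18) and of 0.33 with offsets. APOC2 belongs to the APOE and APOC1 cluster on chromosome 19. APOA4, a chylomicron apolipoprotein in the APOA1 and APOC3 cluster, was at 0.74 with TMM, -0.37 with totals, -0.86 on log2(TPM + 1) and -0.54 with offsets, so clustered genes did not share 1 direction on every scale.

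Among 20 lipases and lipid transfer genes 5 rose and 6 fell in Huh-7 with TMM, 0 rose and 16 fell with totals, and 4 rose and 4 fell with offsets. Over all genes 31.7% were higher and 43.2% lower with TMM, 65.3% were lower with totals, and 29.5% were higher and 28.1% lower with offsets. ABCA1, the exporter that lipidates apolipoprotein A-I, had 4.62 ± 0.386 CPM in knockout and 45.9 ± 4.12 CPM in wild-type Huh-7, a log2 fold change of -3.31 (edgeR adjusted p = 1.1e-05) and of -1.16 with offsets. Among 19 receptors and uptake genes 3 rose and 13 fell with TMM, 0 rose and 16 fell with totals, and 3 rose and 12 fell with offsets, against the same shares over all genes. LRP1, a remnant receptor, had 86.3 ± 2.13 CPM in knockout Huh-7 and 636 ± 236 CPM in wild-type Huh-7. Its log2 fold change was -2.88, and those of LRP6, SORL1 and LRP2, also called lower, were -3.15, -3.29 and -4.95, all in genes of 10252 to 15657 bases. With offsets they were smaller, at -1.63 for LRP1, -0.55 for LRP6, -1.38 for SORL1 and -2.65 for LRP2. Among 42 transcriptional regulators 9 rose and 24 fell with TMM, and 4 rose and 32 fell with totals. With offsets 12 rose and 21 fell. The shares over all genes were 31.7% and 43.2% with TMM, 12.1% and 65.3% with totals, and 29.5% and 28.1% with offsets. CREB3L3, a liver factor that raises genes of triglyceride clearance, had 3.53 ± 1.05 CPM in knockout and 37.1 ± 2.54 CPM in wild-type cells, with a log2 fold change of -3.39 with TMM and -3.84 with offsets. HNF4A, named because its motif type was searched above, was at -0.72 with TMM (edgeR adjusted p = 3.55e-08) and 0.28 with offsets, and therefore had no direction common to the scales.

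In HCC-LM3, of 42 regulators 13 rose and 2 fell with TMM, and of 19 receptors 8 rose and 1 fell, against 14.0% higher and 12.9% lower over all genes. With library totals, where 7.25% of all genes rose and 20.7% fell, these counts were 7 and 3 for regulators and 3 and 1 for receptors. For particle export 2 rose and 8 fell with TMM, and 2 rose and 15 fell with totals. Of 25 glycerolipid genes 6 rose and 3 fell with TMM, of 20 lipases and transfer genes 6 rose and 1 fell, and of 15 other apolipoproteins 3 rose and 0 fell. In the same order these counts were 5 and 5, 2 and 1, and 1 and 1 with totals. They were 5 and 2, 3 and 1, and 3 and 0 with offsets. SREBF1, the driver of fatty acid synthesis, had 147 ± 20.9 CPM in knockout HCC-LM3, against 87.3 ± 1.16 CPM in wild-type HCC-LM3 (SD, n = 3 each), a log2 fold change of 0.75 (edgeR adjusted p = 3.26e-06). ABCG1, a cholesterol exporter, had 12.6 ± 3.28 CPM in knockout and 4.31 ± 1.06 CPM in wild-type cells, at 1.53 log2. LMAN1, a cargo receptor of the early secretory pathway, was at -0.76 log2, and SOAT1, which esterifies cholesterol, at -0.79. These 4 genes were called with TMM, totals and TPM.

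The genes whose TMM-scaled log2 levels over the 12 libraries lay nearest to those of APOB, out of 9524 compared, were IGF2, NID1, COL2A1 and ALDH1A1, with root mean square differences of 0.869, 0.902, 0.932 and 1.02. The distance from APOB to its partner MTTP was 2.05. As these genes are near 0 in HCC-LM3, the distance also depends on how high a gene stands in Huh-7. IGF2 had 304 CPM in wild-type and 66.5 CPM in knockout Huh-7, and MTTP had 40.9 and 8.43 CPM. The order of distances is therefore not read as likeness of the knockout change. Nearest to APOA1 were SERPINA1, AMBP, TTR and ASGR2, at 0.474, 0.639, 0.80 and 1.02, and APOA2 lay at 0.571. All of these share the large step between the lines. Several members overlap other annotated genes: APOE and APOC1 share a stretch with AC011481.3 on their own strand, and APOB, APOA1, APOM and MTTP lie across from AC010872.1, APOA1-AS, BAG6 and TRMT10A on the opposite strand. Whether counting used strand is not given in the sources used here, so reads of such pairs could not be told apart.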

How the data were processed

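Total RNA of 12 cell line libraries had been extracted with TRIzol and sequenced on an Illumina NovaSeq, per the labels' protocols. The authors deposited 1 table with expected counts, TPM values and a gene length per gene, per the file headers. The expected counts carry no normalization, and between 7.49% and 13.3% of them per library are fractional. The deposited TPM values sum to 977632 to 998831 per library. The submitters' processing notes list Bowtie 0.12.2 with mm8 and mm9, both mouse builds, although the identifiers are human. For the counting tool, its strand setting and the human build, the value is not given in the sources used here. Coordinates came from GENCODE 29, which held 99.54% of the identifiers.

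After rounding to whole numbers, the counts went into edgeR 4.0.16 under R 4.3.3 (filterByExpr, TMM, robust quasi-likelihood F test, 1 mean per group, all 12 libraries in 1 fit, Benjamini-Hochberg adjustment over all 16537 genes, two-sided, calls under 0.05). Alternatives were DESeq2 size factors, library totals alone, the DESeq2 1.42.0 Wald test, limma-voom 3.58.1, no filter, at least 1 CPM in 3 libraries, a replicate block, offsets for GC content and length, each line fitted alone and leaving out each library. Limma on log2(TPM + 1) was added after the data had been seen. On simulated data for the Huh-7 comparison over 16537 genes, edgeR recovered 98%, 96%, 96% and 100% of genes changed by -2, -1, 1 and 2 log2. Only these genes, 50 for each size, were set to differ, and no trend over gene length was built in. In the real Huh-7 data 75.0% of genes were called and such a trend was present, so this recovery does not carry over to those calls.

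The 10 genes and the lists were chosen with earlier results of these data known. The rule names all 10 genes in each comparison and, per list, the 4 called genes of largest change with a mean of at least 1 CPM. Many of those list genes are left out of the text, and APOA4, APOC1P1 and HNF4A were added after their values had been seen. Sequence windows are from RefSeq.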

Additional observations from a re-analysis of the deposited data

Results flagged for a closer look

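The effect of METTL5 knockout differed between the lines, by edgeR's test of Huh-7 log2 fold change minus HCC-LM3 log2 fold change at an adjusted p under 0.05, for GPAM (-2.94) and APOM (1.52). GPAM was called lower in both lines with TMM, and by more in Huh-7. APOM was higher in Huh-7 and not called in HCC-LM3, where its 12 to 22 counts per library limit the precision.

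Among the other pathway genes named by the rule, the same difference was -2.96 for HSPA5, -2.87 for SEC24A, -2.53 for MIA3 and -2.37 for CANX in particle export. It was -3.06 for LPIN2, -2.19 for AGPAT5 and -2.23 for LPIN1 in glycerolipid supply, and -4.01 for ABCA1, 0.99 for LCAT and -2.0 for APOL6 among lipases, transfer genes and other apolipoproteins. Among receptors it was -3.76 for SORL1, -3.32 for LRP6 and -3.53 for LRP1, and among regulators -3.93 for CREB3L3, -2.77 for FOXO1 and -3.31 for PPARGC1B. LRP1, SORL1, CREB3L3 and APOL6 were called lower in knockout Huh-7 and higher in knockout HCC-LM3 with TMM, but these opposite directions did not hold on every scale. APOL6 was called higher in Huh-7 with offsets (1.06). In HCC-LM3 the increase of LRP1 was not called with totals or offsets, that of SORL1 and APOL6 not with totals or TPM, and that of CREB3L3 not with TPM or offsets. With the GC and length offsets the difference was still called in the same direction for 12 of these 16 genes and for GPAM, and not for APOM, APOL6, MIA3, AGPAT5 and LCAT. Nothing is read from that count, since the genes were picked for large called changes and a called difference with TMM. With TMM the difference was called for 61.6% of all tested genes, and the share with offsets is not given here. Groups of 3 libraries are too small for a test of single outlying libraries.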

How the results depend on the processing

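Outside the counts over many genes, 289 values kept direction and side of the threshold under an alternative, 14 changed sign, 6 were newly called and 7 lost their call. In Huh-7 the sign turned for APOA1 with GC and length offsets (-0.44) and on log2(TPM + 1) (-0.29), for APOC3 with offsets (-0.06) and for APOE with offsets (-0.40) and TPM (-0.50). APOH turned with library totals (-1.01), TPM (-1.32) and no filter (-0.02), and ran between -0.02 and 0.27 when 1 library was left out. The difference of effects of APOE turned with offsets (-0.57), totals (-0.28) and TPM (-0.62), and ran between -0.22 and 1.14 when 1 library was left out. GPAM between the wild-type lines was 0.03 on TPM. The cause was not tested.

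Genes called in HCC-LM3 were 4440 and numbered 2743 to 6136 when 1 library was left out, falling to 2832 if wild-type replicate 2 was dropped and to 2743 if wild-type replicate 3 was. The members called there numbered 1, 0 with offsets and 0 to 3 when 1 library was left out. Members with a called difference of effects numbered 3, and 5 with the DESeq2 Wald test, 1 with offsets, 7 with limma-voom and 9 on TPM, most of them at the HCC-LM3 floor. With TMM 61.6% of all tested genes had a called difference. The shares of all genes under the alternatives are not given here, so nothing is read from these counts of members in either comparison. As a share of the TPM sum the 10 genes held 1.22% in knockout Huh-7, 1.13% in wild-type Huh-7, 0.000379% in knockout HCC-LM3 and 0.000431% in wild-type HCC-LM3. By counts per kb, 8 of 10 kept their place in wild-type Huh-7.

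Replicate numbers did not pair libraries: same-number correlations were -0.04, -0.05 and 0.04 in Huh-7 and -0.15, 0.13 and -0.30 in HCC-LM3. With the replicate block 12281 genes were called in Huh-7 and 4261 in HCC-LM3, and the 10 genes kept all calls.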
